A study of Rattus norvegicus with 10 samples.

Results

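The 10 adipocyte genes described here are *Adipoq*, *Fabp4*, *Plin1*, *Plin4*, *Cidea*, *Cidec*, *Pparg*, *Lpl*, *Lipe* and *Cd36*. They were taken as a fixed list of names, and each probe set annotated to 1 of these symbols alone was kept, which gave 12 probe sets of the 31042 that were tested. *Plin1* and *Lipe* have 2 probe sets each, the other 8 genes have 1, and 1 further probe set that carries a member symbol beside another symbol was left out. For these 2 genes the brighter probe set stands for the gene and the dimmer is given beside it.

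Mammary tissue came from 5 ACI rats, labelled ACI/SegHsd and female, and from 5 BN rats, labelled Brown Norway. The labels do not give the sex of the BN rats, and the methods of the study name females of both strains. All 10 rats had received 17beta-estradiol (E2) from subcutaneous implants for 12 weeks from 9 weeks of age, and no untreated rat was analysed here, so that a difference between the strains says nothing of a response to the hormone. Total RNA of each rat was hybridized to 1 Affymetrix Rat Genome array, and values are log2 expression from GCRMA, a method that corrects the background by probe sequence. The 10 arrays had medians of 3.35 to 3.53, between 30.6% and 33.3% of probe sets lay at the lowest value of 2.23, and a strain is called near background for a probe set where all its rats were under 4. The protocol that accompanies the BN samples speaks of ACI rats, and the strains were deposited in separate runs, so that a difference between deposits and one between strains cannot be told apart.

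The mammary epithelium lies in a pad of white fat. Adipocytes hold triglyceride in a large droplet, which perilipins coat and CIDE proteins enlarge by fusion. Lipases release fatty acids, either from the droplet or from lipoproteins in the capillaries, and the cells secrete hormones such as adiponectin. Several of these genes are not particular to fat: secretory mammary epithelium expresses *Lpl* and *Cd36* in lactation and, in the mouse, *Cidea*, while endothelium and macrophages express *Cd36* and *Fabp4*. In RNA from whole tissue, fewer adipocytes and less RNA per adipocyte cannot be told apart.

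Of the 10 genes, 3 were called at an adjusted p under 0.05 by limma and all 3 were lower in ACI glands: *Cidea*, *Plin4* and *Adipoq*. None was called higher. At an unadjusted p under 0.05, limma found 5 of the 10 genes, all lower in ACI, against 16.3% of all genes lower and 16% higher. Over the representative probe sets of all 14217 genes, 17.4% were called, 8.29% higher in ACI glands and 9.12% lower, and among the 9363 genes with a mean of at least 4, which all 10 members reached, 24.7% were called in the same fit. Of the 12 member probe sets 4 were called, 3 lower and 1 higher, against 12.7% of all probe sets, 5.87% lower and 6.79% higher. With 10 genes, a count of 3 is near these shares, so it is not a result about the list, and the values below are those of single genes. The log2 fold change, ACI minus BN, was below 0 for 7 of the 10 genes, with a median of −0.79, against a median of 0.018 and 48.4% below 0 over the genes with a mean of at least 4.

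**Figure D1:**
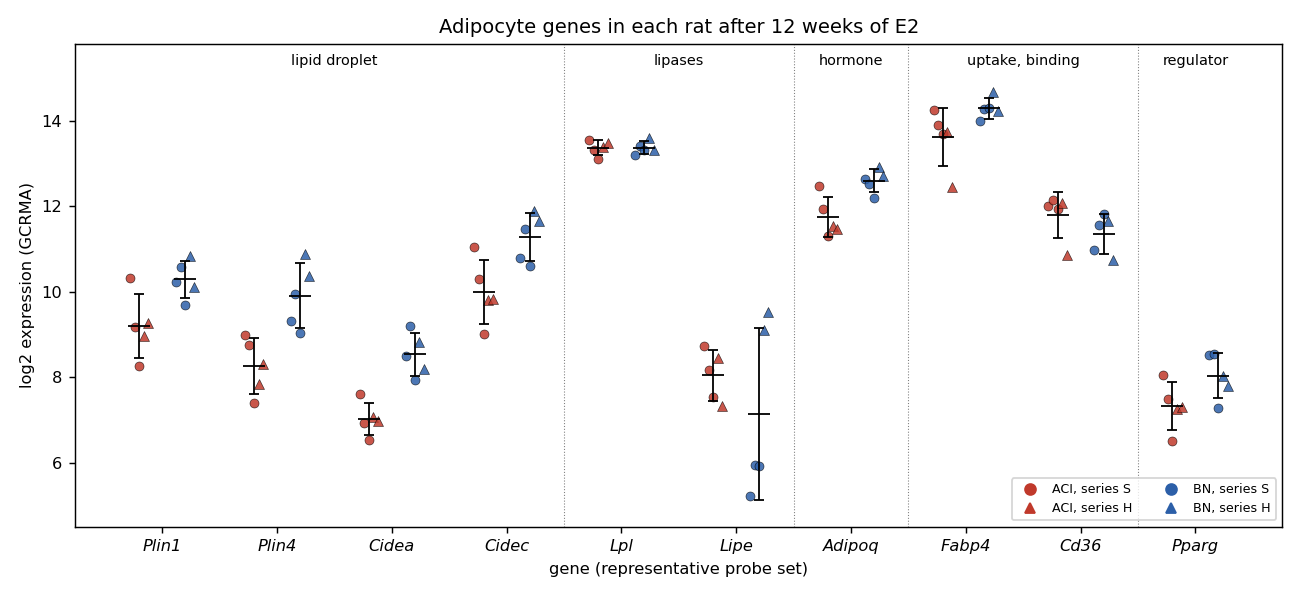
Log2 expression (GCRMA) of the representative probe set of each of the 10 adipocyte genes in every rat, with ACI (red) left of BN (blue), circles for rats whose animal ID opens with S, triangles for H, and black bars for the mean ± SD of 5 rats. The ACI and BN rats do not overlap for *Plin4* and *Cidea*, and the BN values of *Lipe* spread from 5.21 to 9.53.

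The sequence upstream of the start site is shown for the 2 lipid droplet genes that were called, *Cidea* and *Plin4*, since they moved the same way. The RefSeq promoter table (GRCr8) holds 12 entries for 7 of the 10 genes, and the 250 bases before each start were searched on both strands. Capitals mark GGGCGG, the GC box bound by Sp factors; both matches in *Cidea* share 1 base, and none overlaps another motif searched. The *Cidea* sequence is chr18:63164567-63164816 on the plus strand, and the *Plin4* sequence is chr9:1025250-1025499 on the minus strand, the first of 5 nearby starts of that gene.
Cidea promoter: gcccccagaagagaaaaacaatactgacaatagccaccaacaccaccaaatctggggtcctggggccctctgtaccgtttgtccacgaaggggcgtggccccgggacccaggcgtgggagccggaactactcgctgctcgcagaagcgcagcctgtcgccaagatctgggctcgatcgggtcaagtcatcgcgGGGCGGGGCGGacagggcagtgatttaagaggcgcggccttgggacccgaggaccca
Plin4 promoter: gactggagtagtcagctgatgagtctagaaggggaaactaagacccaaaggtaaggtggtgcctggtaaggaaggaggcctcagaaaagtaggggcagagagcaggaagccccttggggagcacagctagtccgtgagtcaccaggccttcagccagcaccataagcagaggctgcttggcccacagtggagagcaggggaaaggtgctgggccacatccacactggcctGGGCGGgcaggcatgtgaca
GGGCGG was present in 3 of the 7 genes, *Cidea*, *Plin4* and *Pparg*, and 30.5% of the 33469 promoters in the table held it. In entries the count is 6 of 12, but 4 of the 6 are overlapping windows on a single *Plin4* match. CCAAT was present in 3 entries, those of *Plin1*, *Pparg* and *Adipoq*, against 34% of all promoters, and TATAAA in the *Cd36* entry alone, against 12.9%. None of the 12 entries held AGGTCA, a core site of PPARG and other nuclear receptors (14.1% of all promoters) or its direct repeat with 1 base between (DR1; 0.0508% in exact form and 0.368% with a free base in each copy), and none held TTGCGCAA, the palindrome of C/EBP factors (0.14%). These matches describe the letters of these windows and not the binding of a factor.

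The 4 lipid droplet genes were the members with the lowest fold changes, between −1.65 and −1.09 with a median of −1.40, and 2 of them were called. *Cidea*, which promotes droplet fusion, had 7.60, 6.93, 6.53, 7.07 and 6.98 in ACI rats 1 to 5, against 8.50, 9.21, 7.94, 8.83 and 8.20 in BN rats 1 to 5. Every ACI rat was below every BN rat, a pattern that 8.32% of all genes showed. The means were 7.02 ± 0.384 in ACI and 8.54 ± 0.503 in BN glands (SD, n = 5 each), a log2 fold change of −1.51 (SE 0.276, 95% interval −2.14 to −0.88) or 2.86-fold lower in ACI, with an adjusted p of 0.00868 by limma and an unadjusted p of 0.00794 by the two-sided exact permutation test, the smallest that 5 rats against 5 allow. *Cidea* is the only member that stayed past the threshold when any 1 of the 10 rats was left out, with adjusted p-values of 0.00646 to 0.0266.

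*Plin4*, a perilipin found on droplets of adipocytes, had 9.00, 8.76, 7.40, 7.84 and 8.31 in ACI rats, against 9.31, 9.95, 9.03, 10.88 and 10.38 in BN rats. The strains did not overlap here either, although the highest ACI value, 9.00 in rat 1, was next to the lowest BN value, 9.03 in rat 3. The means were 8.26 ± 0.655 in ACI and 9.91 ± 0.758 in BN glands (SD, n = 5 each), with a log2 fold change of −1.65 (SE 0.437) and an adjusted p of 0.0421 by limma. The call was lost when any of ACI rats 2 to 5 or BN rats 1, 2, 4 or 5 was left out, with adjusted p-values of up to 0.106, and the fold change lay between −1.87 and −1.41 over all 10 omissions.

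*Cidec*, the main fusion protein of the large droplet of white fat, had 11.04, 10.29, 9.02, 9.80 and 9.84 in ACI rats, against 10.79, 11.48, 10.61, 11.90 and 11.66 in BN rats. ACI rat 1 lay inside the range of the BN rats, and the other 4 ACI rats lay below it. The log2 fold change of −1.29 (SE 0.405, 95% interval −2.22 to −0.36) did not pass the threshold, with an adjusted p of 0.0781 by limma. *Plin1*, the coat protein that holds back and then admits the lipases, had 10.32, 9.18, 8.27, 8.96 and 9.27 in ACI rats, against 10.23, 10.57, 9.69, 10.83 and 10.12 in BN rats. Again ACI rat 1 alone reached the BN range. The log2 fold change was −1.09 (SE 0.374, 95% interval −1.94 to −0.23) with an adjusted p of 0.104. The second *Plin1* probe set was near background in ACI glands at 3.65 ± 0.348 and averaged 4.04 ± 0.553 in BN glands (SD, n = 5 each), with an adjusted p of 0.506 by limma. Without ACI rat 1, *Cidec* and *Plin1* also passed, at adjusted p-values of 0.0363 and 0.0264 by limma.

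The lipases did not share this pattern. *Lpl*, which frees fatty acids from circulating lipoproteins, had 13.56, 13.33, 13.11, 13.38 and 13.49 in ACI rats, against 13.19, 13.41, 13.33, 13.60 and 13.33 in BN rats. The mean was 13.37 in both strains, and the 95% interval of the log2 difference, −0.23 to 0.23, leaves out a difference of the size seen for each droplet gene. *Lipe*, the hormone-sensitive lipase that acts inside the adipocyte, had 8.74, 8.18, 7.54, 8.44 and 7.32 in ACI rats, against 5.21, 5.95, 5.93, 9.10 and 9.53 in BN rats. BN rats 1 to 3 lay below every ACI rat and BN rats 4 and 5 above every ACI rat. The means of 8.04 ± 0.6 in ACI and 7.14 ± 2.01 in BN glands (SD, n = 5 each) gave a log2 fold change of 0.90 with a wide interval (−1.19 to 2.99, adjusted p = 0.6 by limma). The second *Lipe* probe set was near background in both strains, at 2.54 ± 0.0955 in ACI and 2.30 ± 0.0939 in BN glands (SD, n = 5 each), and although it passed the test at an adjusted p of 0.0328 by limma, it gives no measure of a level.

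The hormone gene *Adipoq*, which encodes adiponectin, had 12.47, 11.93, 11.30, 11.54 and 11.48 in ACI rats, against 12.63, 12.53, 12.20, 12.93 and 12.71 in BN rats. ACI rat 1 lay above BN rat 3, and the other 4 ACI rats lay below all BN rats. The means were 11.74 ± 0.466 in ACI and 12.60 ± 0.268 in BN glands (SD, n = 5 each), a log2 fold change of −0.86 (SE 0.235, 95% interval −1.39 to −0.32) or 1.81-fold lower in ACI, with an adjusted p of 0.0481 by limma. This call also was lost without any of ACI rats 2 to 5 or BN rats 1, 2, 4 or 5, with adjusted p-values of up to 0.116, and with the animal ID series described below as a block (adjusted p = 0.065), where *Cidea* and *Plin4* kept theirs at 0.0148 and 0.0469.

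None of the remaining 3 genes was called. *Fabp4*, which carries fatty acids in the cytoplasm, had 14.26, 13.91, 13.70, 13.75 and 12.46 in ACI rats, against 14.00, 14.28, 14.29, 14.67 and 14.24 in BN rats. ACI rat 5 was the lowest of the 10, and the log2 fold change was −0.68 (95% interval −1.40 to 0.04, adjusted p = 0.231 by limma). *Cd36*, a fatty acid translocase, had 12.01, 12.16, 11.93, 12.08 and 10.85 in ACI rats, against 10.98, 11.56, 11.82, 11.66 and 10.74 in BN rats, and its fold change was 0.45 on the log2 scale (95% interval −0.26 to 1.17, adjusted p = 0.461). The first 4 ACI rats lay above all BN rats, and ACI rat 5 was beside the lowest BN rats. *Pparg*, the nuclear receptor that drives adipocyte differentiation, had 8.06, 7.48, 6.50, 7.25 and 7.30 in ACI rats, against 8.53, 8.54, 7.29, 8.03 and 7.80 in BN rats. The strains overlapped, and the log2 fold change was −0.72 (95% interval −1.49 to 0.05, adjusted p = 0.233 by limma).

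**Figure D2:**
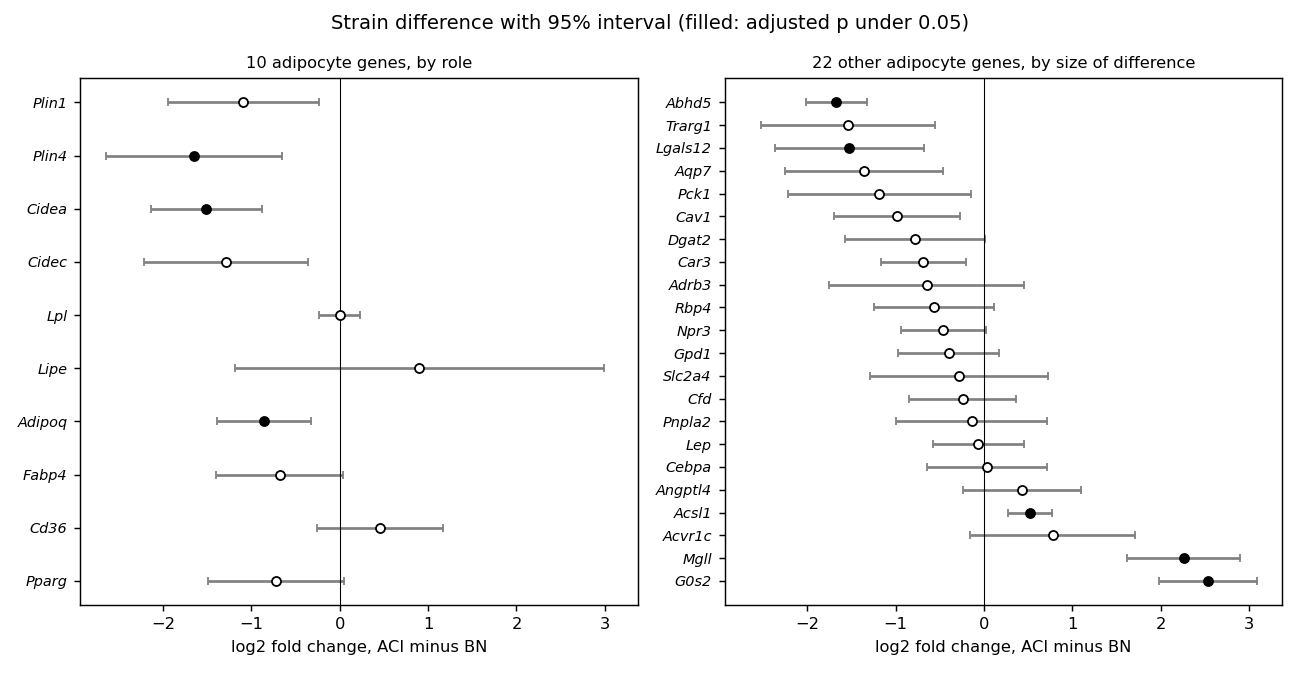
Log2 fold change, ACI minus BN, with its 95% interval from limma for the members and for other adipocyte genes, where filled points passed an adjusted p of 0.05. The 4 droplet genes lie between −1.65 and −1.09, *Lpl* lies at 0.00, and *G0s2* and *Mgll* lie at 2.53 and 2.26.

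To set the droplet genes against the lipases and the hormone, the difference between the log2 values of 2 genes on the same array was compared between strains for 12 pairs, with two-sided exact permutation tests and Benjamini-Hochberg adjustment over the 12 pairs. All 4 droplet genes were lower in ACI glands relative to *Lpl*, with differences of −1.09 (SE 0.306) for *Plin1*, −1.65 (SE 0.376) for *Plin4*, −1.52 (SE 0.23) for *Cidea* and −1.29 (SE 0.341) for *Cidec*. Each of these differences had an adjusted p of 0.0381 in the exact test and kept its sign within each animal ID series. Since the mean of *Lpl* was the same in both strains, these pairs restate the fold changes of the droplet genes. The adjustment covers the 12 pairs alone, and *Plin1* and *Cidec* were not called over all probe sets. Relative to *Lipe*, the differences of *Plin4* (−2.55, adjusted p = 0.0381) and *Cidec* (−2.19, adjusted p = 0.0408) passed the exact test, and those of *Cidea* (−2.41, 0.0847) and *Plin1* (−1.99, 0.104) did not. The pairs with *Lipe* depended on the ID series described next: for *Plin1* the difference was 0.08 in series H and −3.36 in series S, and for *Cidea* it was −0.05 in series H and −3.99 in series S. Relative to *Adipoq*, *Cidea* was lower, at −0.66 (SE 0.225, adjusted p = 0.0408 in the exact test), and *Plin4* at −0.79 (0.0714), *Cidec* at −0.43 (0.104) and *Plin1* at −0.23 (0.302) did not pass. In all, 7 of the 12 pairs passed. The pairs reuse the same genes, from a list chosen with earlier results known. The share of other gene pairs that would pass was not counted, so this count is not a result about the members.

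The animal IDs in the titles open with S for rats 1 to 3 and with H for rats 4 and 5 of each strain, and neither the labels nor the methods say what the letters stand for. Within BN, both H rats lay above all 3 S rats for *Adipoq*, *Plin4*, *Cidec* and *Lipe*, and for no member below them. Within ACI, the H rats lay outside the S rats, both on the same side, for no member. How many of all genes split in these ways was not counted, so the splits are not a result about the members. *Lipe* differed most: its H and S means were 7.88 and 8.15 in ACI rats, against 9.31 and 5.70 in BN rats. The strain difference of *Lipe* was therefore −1.44 in series H and 2.46 in series S (adjusted p = 0.502 and 0.0268 by limma), and the difference between these differed from 0 at −3.89 (SE 0.683, adjusted p = 0.0433), as it did for 2.76% of all probe sets and for none of the other 11 member probe sets, at an adjusted or an unadjusted p under 0.05. This call was kept without ACI rat 4 or BN rat 4 and lost without any other rat, with adjusted p-values of up to 0.11.

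The droplet genes and *Adipoq* had fold changes below 0 within both series. These were, in H and then in S, −2.56 and −1.04 for *Plin4*, −1.96 and −0.84 for *Cidec*, −1.36 and −0.91 for *Plin1*, and −1.31 and −0.55 for *Adipoq*. *Cidea* had −1.49 in H and −1.53 in S. No member but *Lipe* was called within a series, where 3 or 2 rats per strain entered, against 19.8% of all genes in S and 0.394% in H. At an unadjusted p under 0.05, limma found 6 members in H, the 4 droplet genes, *Adipoq* and *Pparg*, and 2 in S, *Lipe* and *Cidea*. The shares of 19.8% and 0.394% are at an adjusted p and are not the measure for these counts. The share of all genes at an unadjusted p within a series was not counted, so these counts are not a result about the members. Without BN rats 4 and 5, an analysis chosen after seeing the data, 2 members were called: *Cidea*, which stayed lower in ACI glands, and *Lipe*, which was higher by 2.35 with an adjusted p of 0.00723 by limma.

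**Figure D3:**
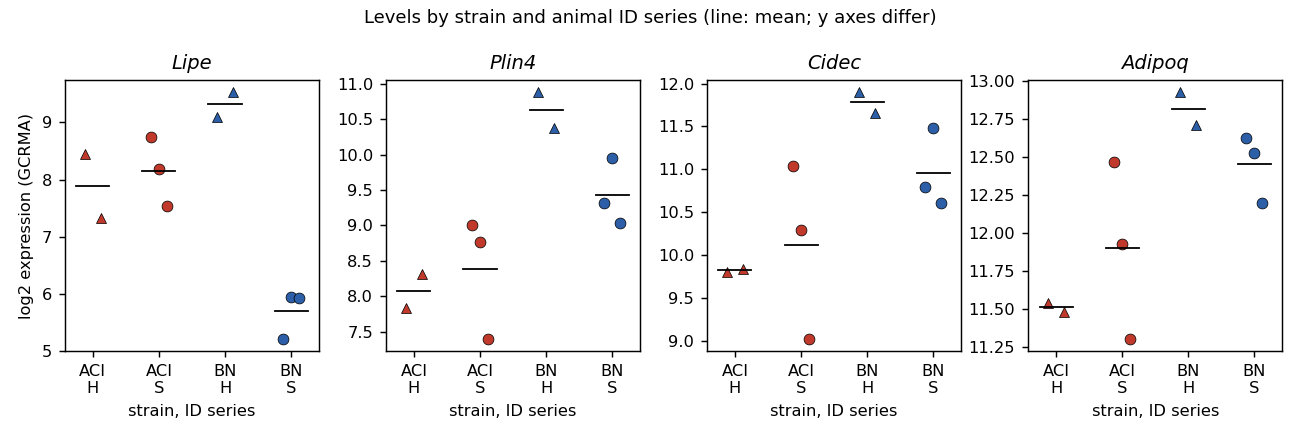
Log2 expression (GCRMA) of *Lipe*, *Plin4*, *Cidec* and *Adipoq* by strain and animal ID series, with a point per rat and a line at the mean. The BN rats of series H average 9.31 for *Lipe*, above the ACI rats, and the BN rats of series S average 5.70, below them.

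Many of the members deviated together from rat to rat. ACI rat 1 had the highest ACI value in 9 of the 10 genes, all but *Cd36*, and ACI rat 3 the lowest in 7, with ACI rat 5 lowest in *Fabp4*, *Lipe* and *Cd36*. In BN, rat 4 was highest in 6 genes and rat 3 lowest in 6. As a mean over the 10 genes, the deviation from the strain mean was 0.67, 0.18, −0.51, −0.03 and −0.31 in ACI rats 1 to 5, and −0.35, 0.07, −0.47, 0.56 and 0.19 in BN rats 1 to 5. The spread between the extremes of a strain was thus as large as several of the strain differences above. The BN means lean on *Lipe*, which ranged from 5.21 to 9.53 in BN rats, and BN rat 5 was highest in *Lipe* alone. The ranking of other genes below uses these mean deviations. The mean level of the 10 genes was 9.53 to 10.71 in ACI and 10.21 to 11.24 in BN glands, so the strains overlapped in the list as a whole.

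**Figure D4:**
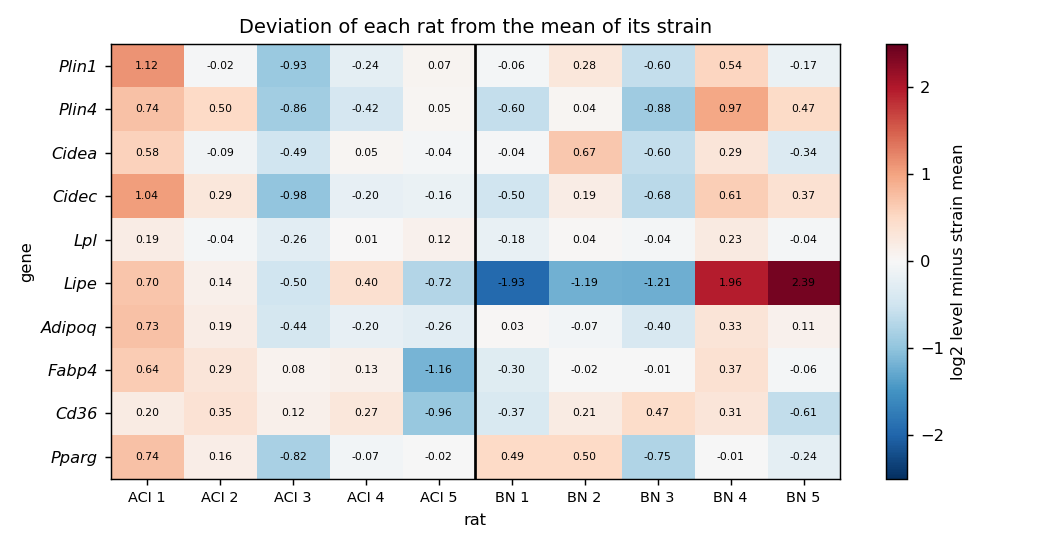
Deviation of each rat from the mean of its strain in log2 units for the 10 adipocyte genes, with genes in rows and rats in columns, ACI left of BN. ACI rat 1 is above its strain mean in most rows and ACI rat 3 below it, and *Lipe* has the widest range, in the BN rats.

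The genes whose within-strain deviations were most like the mean deviation of the members were, among 7294 candidates with a mean of at least 6, *Aoc3* and *Ces1d* (r = 0.97 each), *Trarg1* (0.95), *Gpd1*, *Impa2*, *Mmd* and *Agpat2* (0.94 each), *Arxes1* and *Ehd2* (0.93 each) and *Smoc1* (0.92), over 10 arrays that also share the tissue piece and the array. *Aoc3* and *Trarg1*, an amine oxidase and a regulator of glucose transporter traffic in fat, had fold changes of −0.96 and −1.54 that missed the threshold (adjusted p = 0.0628 and 0.0521 by limma). *Arxes1* was called lower in ACI glands (9.46 against 10.92 in BN, log2 fold change −1.46, adjusted p = 0.0365). *Impa2*, an inositol monophosphatase, was called in the other direction, at 8.66 ± 0.357 in ACI and 7.04 ± 0.3 in BN glands (SD, n = 5 each; log2 fold change 1.61, SE 0.203, adjusted p = 0.00152 by limma). Of the 10 genes, 8 had fold changes below 0 and these 2 were called, 1 in each direction.

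Of 25 other adipocyte genes, 22 were measured, and 5 were called: *G0s2*, *Mgll* and *Acsl1* higher in ACI glands, and *Abhd5* and *Lgals12* lower. This count, too, is near the background of 17.4% of all genes and 24.7% of those with a mean of at least 4. The median fold change of the 22 was −0.43, and 16 were below 0. *G0s2*, an inhibitor of the adipose triglyceride lipase, had 13.59, 13.41, 13.07, 13.71 and 13.36 in ACI rats, against 10.59, 10.97, 11.51, 11.18 and 10.22 in BN rats, and was 5.79-fold higher in ACI (log2 fold change 2.53, SE 0.244, adjusted p = 0.000442 by limma). *Abhd5*, the activator of that lipase, had 8.93, 8.99, 9.13, 8.90 and 8.42 in ACI rats, against 10.31, 10.81, 10.72, 10.54 and 10.37 in BN rats, and was 3.20-fold lower in ACI (log2 fold change −1.68, SE 0.15, adjusted p = 0.000298). The strains were far apart for both genes, and the second *Abhd5* probe set gave −1.06 (adjusted p = 0.0377 by limma).

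The lipase itself, *Pnpla2*, averaged 9.84 ± 0.508 in ACI and 9.98 ± 0.689 in BN glands (SD, n = 5 each), with a 95% interval of the log2 difference of −1.0 to 0.71 (adjusted p = 0.971 by limma). *Mgll*, which cleaves the last fatty acid from glycerol, had 9.70, 9.01, 8.43, 8.15 and 8.69 in ACI rats, against 6.16, 6.56, 6.81, 6.63 and 6.51 in BN rats (log2 fold change 2.26, SE 0.28, adjusted p = 0.00141 by limma). Its other 3 probe sets did not show this, at 0.68, −0.05 and −0.36 (adjusted p = 0.496, 0.785 and 0.633), so the call holds for 1 probe set. *Acsl1*, which activates fatty acids, was higher by 0.52 (SE 0.109, adjusted p = 0.0161 by limma). *Lgals12*, a galectin of lipid droplets, averaged 5.98 ± 0.591 in ACI and 7.51 ± 0.609 in BN glands (SD, n = 5 each; log2 fold change −1.53, adjusted p = 0.03 by limma).

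Of 10 genes of thermogenic adipocytes, 7 were under 4 in every rat, among them *Ucp1*, the uncoupling protein that defines brown fat. *Cox8b* was not near background, at 6.95 ± 2.46 in ACI and 5.97 ± 1.82 in BN glands (SD, n = 5 each), and *Cpt1b* reached 4.25 in ACI rat 4. Neither was called. *Cidea* is also expressed in brown fat, and the part of brown fat RNA in its values was not tested. *Ppargc1a*, a coactivator of mitochondrial genes, was the 1 called gene (adjusted p = 0.000138 by limma), at 4.59 ± 0.239 in ACI and 2.94 ± 0.161 in BN glands (SD, n = 5 each). All BN rats were near background for it, so that no size of the difference is given, and its other 2 probe sets were near background in both strains.

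Markers of other cell types were counted in the same way, with no test of a cell type. Beside each count of called markers stand 17.4% of all genes and 24.7% of those with a mean of at least 4. With so few markers per list, the counts are not a result about a cell type. The 8 luminal epithelial markers had mean levels of 11.17 to 11.62 in ACI and 10.36 to 10.95 in BN rats, with 3 genes called higher in ACI (*Krt18*, *Epcam* and *Cldn3*) and a median fold change of 0.54. The 5 milk protein genes had mean levels of 14.91 to 15.03 in ACI and 14.62 to 14.84 in BN rats, so milk protein RNA was abundant in both strains. It was not equal: *Csn1s1*, *Csn2* and *Csn3* were called higher in ACI and *Lalba* lower, with a median fold change of 0.38. Of the 5 measured lipid droplet and fat globule genes of that epithelium, *Mfge8* was called higher (0.92, adjusted p = 0.021 by limma) and *Plin3* lower (−0.59, adjusted p = 0.0357), with mean levels of 10.66 to 11.31 in ACI and 10.03 to 11.11 in BN rats. *Plin2*, the perilipin of milk fat droplets, averaged 12.66 ± 0.22 in ACI and 12.09 ± 0.289 in BN glands (SD, n = 5 each; adjusted p = 0.0507 by limma), and its second probe set gave −0.70 (adjusted p = 0.125). The part of epithelial RNA in the values of *Lpl*, *Cd36* and *Cidea* was not tested.

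Endothelial markers (7 of 8 measured) had mean levels of 6.68 to 7.51 in ACI and 7.56 to 8.27 in BN rats, with *Kdr*, *Tek*, *Tie1* and *Vwf* called lower in ACI. *Gpihbp1*, which anchors the *Lpl* product in capillaries, was called in the opposite direction, at 8.30 ± 0.536 in ACI and 6.17 ± 0.536 in BN glands (SD, n = 5 each; log2 fold change 2.13, SE 0.331, adjusted p = 0.00406 by limma). Macrophage markers (5 of 7 measured) had mean levels of 7.80 to 8.34 in ACI and 8.93 to 10.02 in BN rats, with 4 called lower in ACI, and fibroblast markers 10.48 to 10.79 in ACI and 10.60 to 12.44 in BN rats, with *Pdgfra* called lower. The shares of 17.4% and 24.7% apply to these counts as well. The 5 measured basal and myoepithelial markers ranged in mean from 8.54 to 9.08 in ACI and from 7.87 to 8.64 in BN rats, with none called by limma and 3 at an unadjusted p under 0.05. At that unadjusted p, 16.3% of all genes were lower in ACI and 16% higher, shares that apply to the muscle count below too. Skeletal muscle, which also expresses *Lipe* and *Lpl*, varied between rats in both strains: the mean of 9 markers was 6.58, 10.43, 9.11, 10.24 and 9.41 in ACI rats 1 to 5, and 3.89, 6.86, 3.81, 7.16 and 9.60 in BN rats 1 to 5, with none called by limma, 2 at an unadjusted p under 0.05, and *Myh7* under 4 in every rat. By this mean, the 2 BN rats with the most muscle RNA were rats 4 and 5, with rat 2 just behind rat 4. By single markers, BN rat 2 was above BN rat 4 for *Acta1*, *Myh4*, *Tnnt3* and *Tnnc2*, and below it for *Ckm*, *Myh1*, *Myh2* and *Mb*. *Lipe* was high in BN rats 4 and 5 alone, and at 5.95 in BN rat 2. ACI rat 1 had the least muscle RNA by this mean and the highest *Lipe* of its strain. The part of these cell types in the adipocyte gene values was not tested.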

How the data were processed

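Per the labels and the submitters' processing notes, the authors ran GCRMA 2.18.1 on the arrays, and the deposited log2 values were used unchanged. The sources used here do not say which arrays were normalized jointly. Of 31099 probe sets, 57 controls were left out; 20826 carry 1 symbol in the platform annotation, of which 20758 were matched by gene ID to RefSeq. The strains were compared in limma 3.58.1 (R 4.3.3; strain as the only term, Benjamini-Hochberg over 31042 probe sets, two-sided), which was tested on simulated data. SDs give the spread between 5 rats per strain, and this number of arrays limits the precision. Intervals give the uncertainty of the difference between strain means, with a variance that limma moderates over all probe sets. Exact permutation tests took all 252 arrangements.

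Members and lists were chosen with earlier results of these data known. Named are all members, the called other adipocyte genes (at most 8) and the 10 genes most alike within strains. *Pnpla2*, *Ppargc1a*, *Ucp1*, *Cox8b*, *Cpt1b*, *Cav1*, *Gpihbp1* and the named markers of other cell types lie outside these and were picked with their values in view. Alternatives were blocks for replicate number and ID series, each series alone, a filter or a floor at 4, quantile normalization, centring, Student's test, array weights, the mean over probe sets of a gene, each rat left out and, chosen after seeing the data, leaving out BN rats 4 and 5 and repeating the test of strain by ID series under these settings.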

Additional observations from a re-analysis of the deposited data

Results flagged for a closer look

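Samples far from the others of their strain were looked for in 34 groups of 5 rats (12 member probe sets and 5 other genes in each strain), where chance alone marks about 1 in 20 groups. In *Cd36*, ACI rat 5 was at 10.85, against 11.93 to 12.16 in the other ACI rats. In the second *Plin1* probe set, ACI rat 3 was at 3.03, against 3.79 to 3.85 in the others, and in the second *Lipe* probe set BN rat 5 was at 2.47, against 2.26 in the others; all of these values are near background.

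The strain difference of *Lipe* differed between the animal ID series, by −3.89 (H minus S, SE 0.683, adjusted p = 0.0433 by limma). The skeletal muscle marker means given in the report also were higher in BN rats 4 and 5 than in the other BN rats. BN rat 2 was close to BN rat 4 in this mean, at 6.86 and 7.16, but had *Lipe* at 5.95 against 9.10. ACI rat 1 had the lowest muscle mean of its strain, 6.58, and its highest *Lipe*, 8.74. The part of muscle RNA in this difference was not tested.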

How the results depend on the processing

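Of 220 fold changes of single members under an alternative, 169 kept their direction and their side of the threshold, 30 lost the call, 11 gained it and 10 changed sign, the last all of *Lpl* or *Lipe*, neither of which was called. The count of 3 called members became 1 in series S alone, where *Lipe* was called higher and the 3 lost their calls. It became 2 with the ID series as a block, without *Adipoq*, 0 in series H alone (6 at an unadjusted p) and 1 by the methods' Student's test (5 at an unadjusted p). With a filter at a mean of 4 or with centred arrays it became 5, all lower in ACI glands. With array weights it also became 5, but 4 were lower and *Lipe* was higher, by 2.02 (adjusted p = 0.0278 by limma). When a rat was left out, the count was 1 to 5. The lowest count of 1 was found without any of ACI rats 2 to 5 or BN rats 1, 2, 4 or 5, and the highest, 5, without ACI rat 1. The 4 called member probe sets became 2 with the replicate block, in series S, with the floor and by Student's test, 0 in series H, and 1 to 5 without 1 rat. The 3930 calls over the whole array became 1926 with the replicate block, 100 in series H, 8397 with array weights, 6350 without BN rats 4 and 5, and 2598 to 4618 without 1 rat. The 1 difference between ID series became 0 with the floor or array weights, and 0 to 2 without 1 rat. *Lpl*, at 0.00, became −0.03 in series H, −0.0297 with quantile normalization, −0.026 with centring, −0.0085 with array weights and −0.0445 to 0.068 without 1 rat, and *Lipe* became −1.44 in series H. The cause of these changes was not tested. With the replicate block, 2 members were called, *Cidea* and *Pparg*. The labels do not say that the numbers pair the rats. The correlations of same-numbered rats were −0.202 to 0.201, and 1 of 5 correlated best with its own number. So few correlations cannot settle whether the rats were paired, and the numbers also follow the ID series. Scaling moved the median fold change of the genes with a mean of at least 4 by less than 0.1. The second *Lipe* probe set lies where a log2 difference has no clear size.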
